A study of Mus musculus with 12 samples.

Results

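The genes described here are 10 genes of microRNA processing, Lin28b, Drosha, Dgcr8, Xpo5, Dicer1, Tarbp2, Prkra, Zcchc11, Zcchc6 and Dis3l2, chosen by name as the rows with exactly those symbols. The list was made with earlier results of these data known. All 10 were found among the 24062 gene symbols counted in each kidney. Whole kidneys of mice at postnatal day 3 were sequenced as RNA, and 12 kidneys fell into 4 groups of 3. The study asked how Lin28b and let-7 control when nephron formation stops.

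LIN28B Wt1 kidneys came from mice on a C57BL/6 background that carry a doxycycline-inducible human LIN28B transgene, whose activator is switched on only in cells with a Wt1-Cre history. A short doxycycline pulse was given before birth, so the transgene product is limited to the Wt1 lineage, which includes nephron progenitors and podocytes, while every kidney cell type was sequenced. LIN28B control kidneys came from C57BL/6 littermates labelled wild type. The let-7 KO kidneys came from mice with a constitutive deletion of the let-7a-1, let-7d and let-7f-1 genes on a mixed CD1 and C57BL/6 background, and the let-7 WT kidneys from their littermates. Other let-7 genes stay intact in these mice. Each group came from 2 litters, with replicates 1 and 2 from litter 1 and replicate 3 from litter 2.

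A microRNA is made in steps. In the nucleus, Drosha and its RNA-binding partner Dgcr8 (together the microprocessor) cut a hairpin out of the primary transcript, and exportin 5, the product of Xpo5, carries the hairpin to the cytoplasm. There Dicer1 cuts the loop away, together with either of a pair of double-stranded RNA-binding partners, TRBP (the product of Tarbp2) and PACT (the product of Prkra). Lin28a and Lin28b block this path for let-7 by binding the loop of its precursors. In the route best described for Lin28a, the terminal uridylyltransferases Zcchc11 and Zcchc6 are recruited and add a uridine tail. The nuclease Dis3l2 then degrades the tailed precursor. Lin28b is itself a textbook target of let-7, and Dicer1 carries let-7 matches in its coding sequence. Lin28b is high in embryonic tissues and falls as kidneys mature.

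The mature let-7 RNAs of the deleted genes share one seed, bases 2 to 8, given here in capitals because it is the part that pairs with targets. The sequences are those of RefSeq on GRCm38.p6.
let-7a-5p: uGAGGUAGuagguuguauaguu
let-7d-5p: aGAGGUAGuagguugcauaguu
let-7f-5p: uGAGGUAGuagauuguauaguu

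The same let-7f-5p sequence is also listed under Mirlet7f-2 on chromosome X. Precursor hairpins are shown with the motif GGAG in capitals, the loop motif that Lin28 proteins are known to bind. The deleted genes lie on the minus strand of chromosome 13 of GRCm38.p6, Mirlet7d at 48536012 to 48536114, Mirlet7f-1 at 48537829 to 48537917 and Mirlet7a-1 at 48538179 to 48538272.
Mirlet7a-1: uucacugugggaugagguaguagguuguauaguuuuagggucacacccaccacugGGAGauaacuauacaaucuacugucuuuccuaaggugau
Mirlet7d: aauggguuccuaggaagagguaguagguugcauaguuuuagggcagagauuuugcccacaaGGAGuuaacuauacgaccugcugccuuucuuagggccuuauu
Mirlet7f-1: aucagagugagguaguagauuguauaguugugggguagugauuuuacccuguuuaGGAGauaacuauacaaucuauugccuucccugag

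Of the 12 let-7 family hairpins in the table, 9 hold GGAG, including each of the deleted ones. Matches to the shared seed (letters CTACCTC on the transcript strand) were searched in 1 protein-coding transcript per gene of GENCODE M21. In the 3′ untranslated region 9.1% of 20449 genes held a match and in the coding sequence 12.4% did. Lin28b held 4 matches in its 3′ untranslated region and 1 in its coding sequence. Dicer1 held 4 matches in its coding sequence and none in its 3′ untranslated region, and Tarbp2 held 1 in its 3′ untranslated region. Xpo5 held 2 and Zcchc11 held 1 in the coding sequence. Drosha, Dgcr8, Prkra, Zcchc6 and Dis3l2 held none. The matches of the 3 genes with the largest LIN28B Wt1 values below are shown with the match in capitals.
Lin28b 3′ match 1: acccgggcgggaagtCTACCTCatgca
Lin28b 3′ match 2: tatacttgttagtaaCTACCTCtgagt
Lin28b 3′ match 3: gtttacagcacatggCTACCTCccagc
Lin28b 3′ match 4: aaatgatggcaccgaCTACCTCttcaa
Lin28b coding match: gctaaagaatgcagtCTACCTCctcag
Dicer1 coding match 1: tcagcctactgtgttCTACCTCttaat
Dicer1 coding match 2: tacctgtacaaccaaCTACCTCatatc
Dicer1 coding match 3: ggaacgctaacacatCTACCTCagatg
Dicer1 coding match 4: agatgcgattttggaCTACCTCataac
Tarbp2 3′ match: ccagaggtgccatctCTACCTCtgaca

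A match is a stretch of letters, and binding was not measured here. No mature microRNA was measured either.

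Depth ran from 39926235 to 61872736 counts per kidney. Values are CPM, counts scaled to a common library total, after TMM scaling over the 12 kidneys. A gene with 0 counts could still be present at up to 0.0485 to 0.0751 CPM, the level of 3 counts, which covers counting error only. Kidneys also differed in how counts followed transcript length. The slope on log2 length was fitted to log2 CPM less each gene's mean over the 12 kidneys. It is therefore relative to the average kidney. It ran from -0.20 in let-7 KO kidney 3 and -0.17 in let-7 KO kidney 2 to 0.16 in LIN28B control kidney 1. The labels were checked on the deleted genes: Mirlet7d had 0 counts in all 3 let-7 KO kidneys and 0, 19 and 35 counts in the let-7 WT kidneys. Mirlet7a-1 and Mirlet7f-1 also had 0 counts in all let-7 KO kidneys, but at most 8 counts in any let-7 WT kidney, so they are little check. The human transgene has no row among these mouse genes. Cap mesenchyme markers, which mark nephron progenitors in a kidney, were present in every group. Proximal tubule markers were too. Of 10 blood and immune markers, 6 globin genes together had 1 count over all kidneys, while Alas2, a heme synthesis gene of red cell precursors, lay at 33.2 to 90.4 CPM, Lyz2 at 22.9 to 99.0 CPM and Ptprc at 2.53 to 16.4 CPM. Their summed level overlapped between the groups of both models.

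A gene was called at an adjusted p below 0.05 (edgeR quasi-likelihood test with Benjamini-Hochberg adjustment over all genes tested, 3 kidneys against 3). An unadjusted p below 0.01 is given as a looser threshold. Standard errors (SE) are on the log2 scale. An exact permutation test of 3 kidneys against 3 (two-sided) cannot go below p = 0.1, and every gene whose groups did not overlap had that p.

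In LIN28B Wt1 kidneys, Dicer1 and Tarbp2, the nuclease that makes the final cut and one of its partners, rose to about double the control level. Lin28b, Zcchc11 and Dis3l2 also lay wholly outside the control range, the first 2 above it and Dis3l2 below it, but did not pass the test. Drosha, Dgcr8, Xpo5, Prkra and Zcchc6 overlapped with controls. All 10 genes were tested, 2 were called higher and none lower, where 0.462% of the 15793 genes tested were called higher and 0.766% lower. At the looser threshold the same 2 genes were higher and none lower, where 3.25% of genes were higher and 4.08% lower. Of the 10, 4 did not overlap on the higher side and 1 did on the lower side, where 10.3% and 13.6% of genes did so. One of the 4 is Lin28b, which passed the filter on low counts only through the group where it was high. Without Lin28b 3 of 9 did not overlap on the higher side. The genes were also chosen with earlier results of these data known. The calls and these counts therefore support nothing about the genes as a whole. The median log2 fold change was 0.30, and 0.23 without Lin28b, beside -0.016 over all genes tested.

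In let-7 KO kidneys none of the genes was called in either direction. Tarbp2 lay above every let-7 WT kidney, and Xpo5 and Dis3l2 lay below every one. Lin28b was too low to test. Of the 9 genes tested 0 were called, where 0% of the 15500 genes tested were called higher and 0.0194% lower. At the looser threshold 1 gene, Tarbp2, was higher and none lower, where 1.1% of genes were higher and 1.63% lower. One gene of the 9 did not overlap on the higher side and 2 on the lower side, where 7.81% and 8.98% of genes did so. Their median log2 fold change was -0.24, beside -0.023 over all genes tested.

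**Figure D1:**
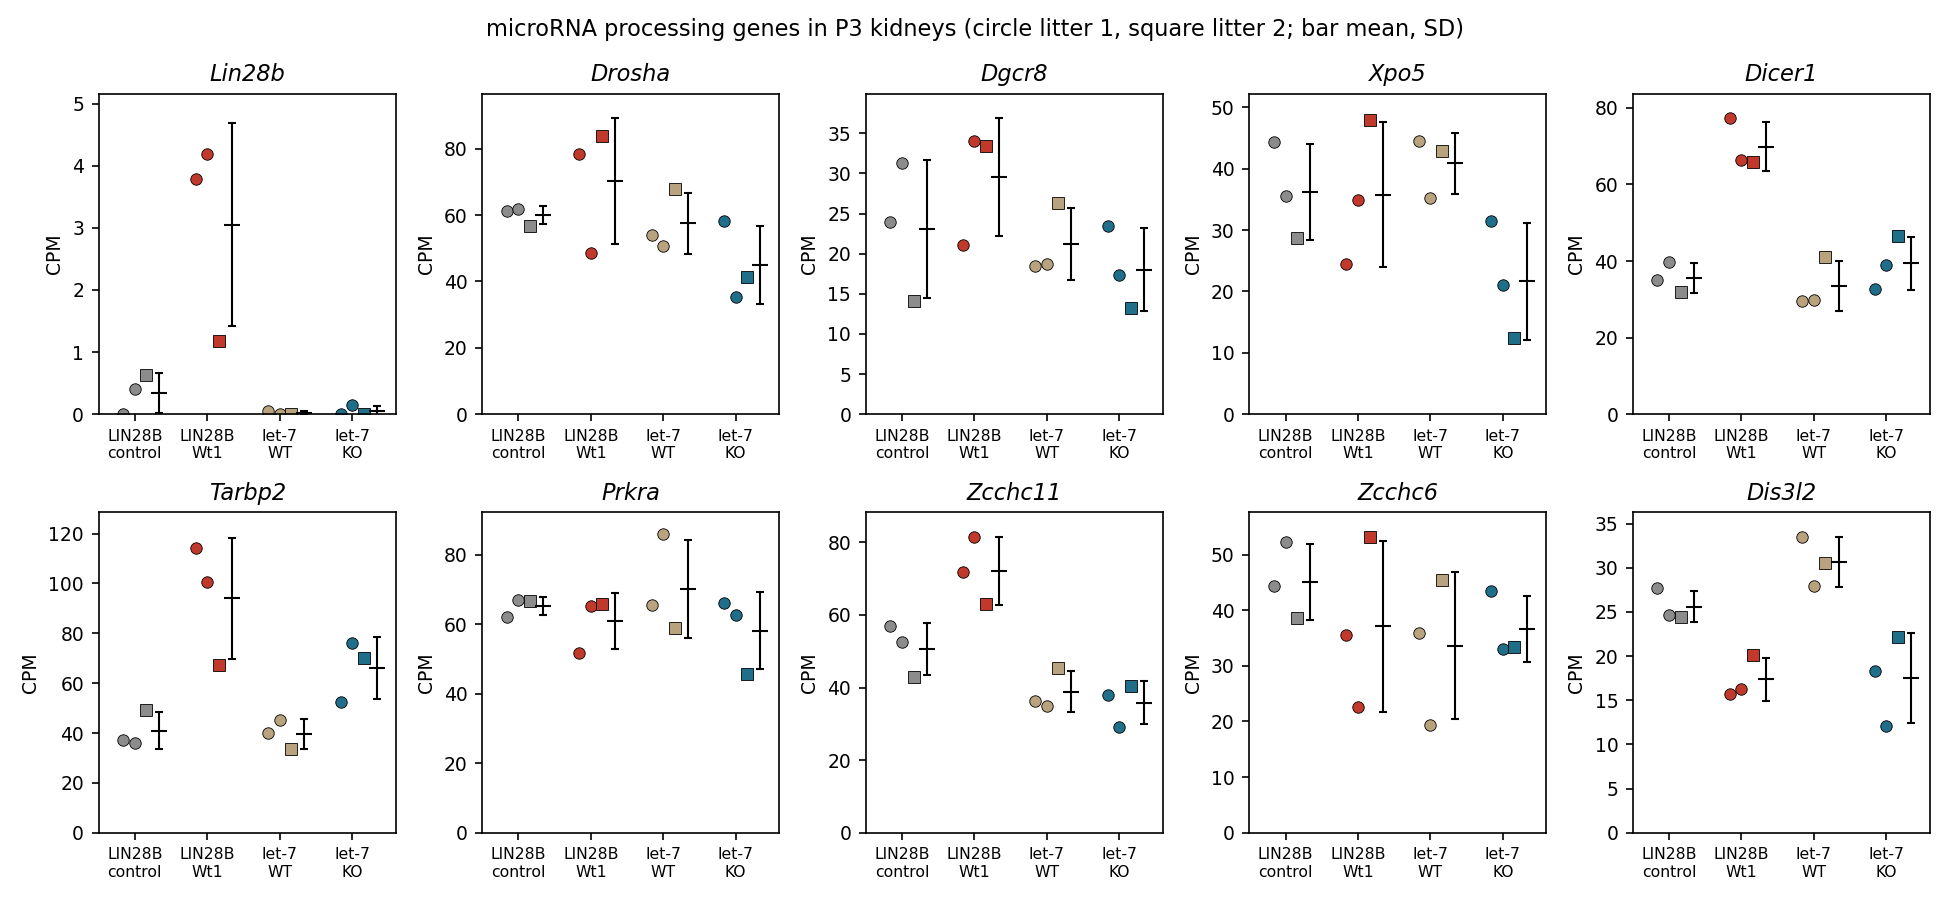
CPM of each of the 10 genes (vertical axis, linear from 0) in the 12 kidneys by group (horizontal axis), with circles for litter 1, squares for litter 2, and the mean ± SD of 3 kidneys beside the points. Dicer1 in LIN28B Wt1 kidneys lay at 66.0 to 77.2 CPM against 31.8 to 39.8 in controls, and Tarbp2 lay above the littermates in both models.

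Lin28b (ENSMUSG00000063804.8; minus strand of chromosome 10 of GRCm38, 45376620 to 45486395), the let-7 inhibitor of the group, was the gene at the lowest level in every group. LIN28B control kidneys had 0, 18 and 33 counts, which are 0, 0.414 and 0.632 CPM. LIN28B Wt1 kidneys had 232, 224 and 71 counts, or 3.79, 4.18 and 1.18 CPM, all above the controls, with the litter 1 kidneys highest. The log2 fold change was 3.13 (SE 1.27, adjusted p = 0.231, edgeR), so the difference did not pass the threshold. With 1 kidney left out it ran from 2.54 (without control 1) to 3.92 (without control 3), and with the length slope as a covariate it was 2.40, called in none of these fits. The gene passed the filter on low counts only through the LIN28B Wt1 group. Reads of the human transgene that align to the similar mouse sequence and reads of the mouse gene cannot be told apart in these counts. By qRT-PCR, the paper saw endogenous Lin28b mRNA unchanged between LIN28B Wt1 kidneys and littermates at the times it tested. In the let-7 experiment Lin28b had 3, 0 and 0 counts in WT and 0, 8 and 0 in KO kidneys, and no fold is given there. Lin28a, the paralog of Lin28b, had 0 counts in 10 of the 12 kidneys.

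The microprocessor genes overlapped between mutants and littermates in both models. Drosha (ENSMUSG00000022191.16; plus strand of chromosome 15, 12824815 to 12935291), the nuclear nuclease, lay at 61.2, 61.7 and 56.8 CPM in LIN28B controls and at 78.3, 48.5 and 83.7 CPM in LIN28B Wt1 kidneys. One mutant kidney was below and 2 were above all controls (log2 fold change 0.23, SE 0.21, adjusted p = 0.627). In the let-7 experiment Drosha lay at 54.1, 50.5 and 67.8 CPM in WT and 58.1, 35.3 and 41.3 CPM in KO kidneys, a log2 fold change of -0.36 (SE 0.24, adjusted p = 0.617). Dgcr8 (ENSMUSG00000022718.12; minus strand of chromosome 16, 18253948 to 18289246), which holds the hairpin for Drosha, spanned 14.1 to 31.2 CPM in LIN28B controls and 21.02 to 34.1 in LIN28B Wt1 kidneys. Its log2 fold changes were 0.36 (SE 0.31, adjusted p = 0.608) in LIN28B Wt1 and -0.24 (SE 0.30, adjusted p = 0.818) in let-7 KO. Dgcr8 shares 825 exonic bases with Trmt2a on the opposite strand, and since the counting is not stated to use strand, reads from that stretch cannot be assigned to either gene.

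Xpo5 (ENSMUSG00000067150.6; plus strand of chromosome 17, 46202782 to 46243598), the export factor, separated the let-7 groups and not the LIN28B groups. WT kidneys lay at 44.5, 35.2 and 42.8 CPM and let-7 KO kidneys at 31.5, 21.1 and 12.5 CPM, every KO kidney below every WT kidney. The log2 fold change was -0.92 (SE 0.32, adjusted p = 0.378), so it did not pass the threshold. LIN28B controls lay at 44.3, 35.5 and 28.8 CPM and LIN28B Wt1 kidneys at 24.4, 34.9 and 47.9 CPM, with a log2 fold change of -0.014 (SE 0.27, adjusted p = 0.987). Xpo5 followed the length slope of the kidneys more closely than any other member (Pearson r = 0.82 over 12 kidneys, which share libraries with the slope), and the 2 KO kidneys lowest in Xpo5 had the lowest slopes. With the slope as a covariate its let-7 KO value was -0.55 (adjusted p = 0.718). The part of the slope in this result was not tested further.

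Dicer1 (ENSMUSG00000041415.10; minus strand of chromosome 12, 104687742 to 104751952), whose longest transcript has 27 exons and 9851 bases, rose in LIN28B Wt1 kidneys. Controls lay at 35.001, 39.8 and 31.8 CPM and LIN28B Wt1 kidneys at 77.2, 66.3 and 66.0 CPM, a wide gap between narrow groups. The change was 1.97-fold (log2 0.98, SE 0.16, adjusted p = 0.0264). It was 1.92-fold between the kidneys of litter 1 and 2.07-fold between the single kidneys of litter 2. Dicer1 hardly followed the length slope (r = -0.031 over 12 kidneys), and with it as a covariate the log2 fold change was 0.98. In the let-7 experiment WT kidneys lay at 29.5, 29.7 and 41.0 CPM and KO kidneys at 32.7, 38.8 and 46.5 CPM, and the groups overlapped (log2 fold change 0.23, SE 0.24, adjusted p = 0.769).

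Tarbp2 (ENSMUSG00000023051.11; plus strand of chromosome 15, 102518192 to 102523676), a short gene whose longest transcript has 9 exons and 1523 bases, rose in LIN28B Wt1 kidneys too. LIN28B controls lay at 37.2, 36.04 and 49.4 CPM and LIN28B Wt1 kidneys at 114, 101 and 67.2 CPM. The change was 2.30-fold (log2 1.20, SE 0.22, adjusted p = 0.0374). The change was 2.93-fold in litter 1 and 1.36-fold between the single kidneys of litter 2. The litters also differed in length slope. In litter 1 it was -0.055 and -0.065 in LIN28B Wt1 kidneys and 0.16 and 0.11 in controls. In litter 2 it was 0.15 in the LIN28B Wt1 kidney and 0.00997 in the control. The part of the slope in this split was not tested. With the length slope as a covariate the log2 fold change was 0.93 (adjusted p = 0.00765).

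In the let-7 experiment Tarbp2 lay at 40.1, 45.3 and 33.6 CPM in WT and 52.3, 76.2 and 69.9 CPM in KO kidneys, every KO kidney above every WT kidney. The log2 fold change of 0.73 (SE 0.22) was past the looser threshold but not called (adjusted p = 0.362), and with the length slope as a covariate it was 0.43 and past neither threshold. Tarbp2 ran against the length slope (r = -0.58 over 12 kidneys). The 3 genes whose log2 CPM followed Tarbp2 most closely over the 12 kidneys, of 16597 compared, were Knop1 (r = 0.984), Denr (r = 0.977) and Cenpw (r = 0.966). Those closest to Lin28b were Tsga13 (r = 0.939), Dazap1 (r = 0.922) and Twf2 (r = 0.912). Lin28b had only 0 to 8 counts in the let-7 kidneys and 0 in LIN28B control 1. It passed the filter on low counts only through the LIN28B Wt1 group, so its correlations support nothing about a link to these genes. All these correlations are descriptions of 12 libraries that differ by group, litter and length slope.

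Neither call in LIN28B Wt1 kidneys held in every fit. With litter as a replicate block, which compares littermates, the log2 fold changes were 0.98 for Dicer1 (adjusted p = 0.0514) and 1.19 for Tarbp2 (adjusted p = 0.0821), and 0 genes were called. With 1 kidney left out, both calls were lost without control 1, 2 or 3 and without LIN28B Wt1 1 or 2 (0 genes called), and 3 genes, with Zcchc11, were called without LIN28B Wt1 3. Over those 6 fits the log2 fold change of Dicer1 ran from 0.90 to 1.07 and that of Tarbp2 from 1.04 to 1.395, each with an unadjusted p below 0.01 in 6 of 6 fits.

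Prkra (ENSMUSG00000002731.6; minus strand of chromosome 2, 76629898 to 76648015), whose product PACT is the other Dicer partner, overlapped between the groups of both models. It lay at 62.1 to 66.9 CPM in LIN28B controls, 51.7 to 65.9 in LIN28B Wt1, 58.8 to 85.8 in let-7 WT and 45.6 to 66.1 in let-7 KO kidneys. The log2 fold changes were -0.094 (SE 0.16, adjusted p = 0.820) and -0.27 (SE 0.22, adjusted p = 0.689).

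The order of these partners therefore differed between groups. Per kilobase of transcript, Prkra stood above Tarbp2 with no overlap in LIN28B controls (40.4 ± 1.66 against 26.9 ± 4.86 CPM per kilobase, SD, n = 3) and in let-7 WT kidneys (43.4 ± 8.71 against 26.04 ± 3.86). In LIN28B Wt1 kidneys Tarbp2 stood above Prkra with no overlap (61.7 ± 15.9 against 37.8 ± 4.99), and in let-7 KO kidneys the mean of Tarbp2 was higher but the ranges overlapped (43.5 ± 8.13 against 36.02 ± 6.80).

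The ratio of Tarbp2 to Prkra counts within a kidney does not depend on the scaling between kidneys, and the longest transcripts of the pair have 1523 and 1614 bases. The ratio still ran against the length slope (r = -0.55 between the log2 ratio and the slope over 12 kidneys), and the part of the slope in it was not tested. The ratio and those that follow were chosen after the values were seen. For Tarbp2 to Prkra it was 0.599, 0.539 and 0.741 in LIN28B controls and 2.21, 1.54 and 1.02 in LIN28B Wt1 kidneys. It was 0.612, 0.528 and 0.571 in let-7 WT and 0.792, 1.22 and 1.53 in let-7 KO kidneys. Every mutant kidney of either model was above all 6 control kidneys. Against littermates the ratio was 2.44 times as high in LIN28B Wt1 kidneys, and for let-7 KO it was 2.001 times as high (exact permutation test, two-sided, p = 0.1 in each, 0.2 adjusted over 6 comparisons of 3 ratios). The ratio of Dicer1 to Drosha was 1.73-fold higher in LIN28B Wt1 with no overlap. In let-7 KO kidneys it overlapped, with kidneys 2 and 3 at 1.10 and 1.13 and kidney 1 at 0.563. The Dicer1 to Drosha ratio also ran against the length slope (r = -0.59 between the log2 ratio and the slope over 12 kidneys). The part of the slope in it was not tested either.

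**Figure D2:**
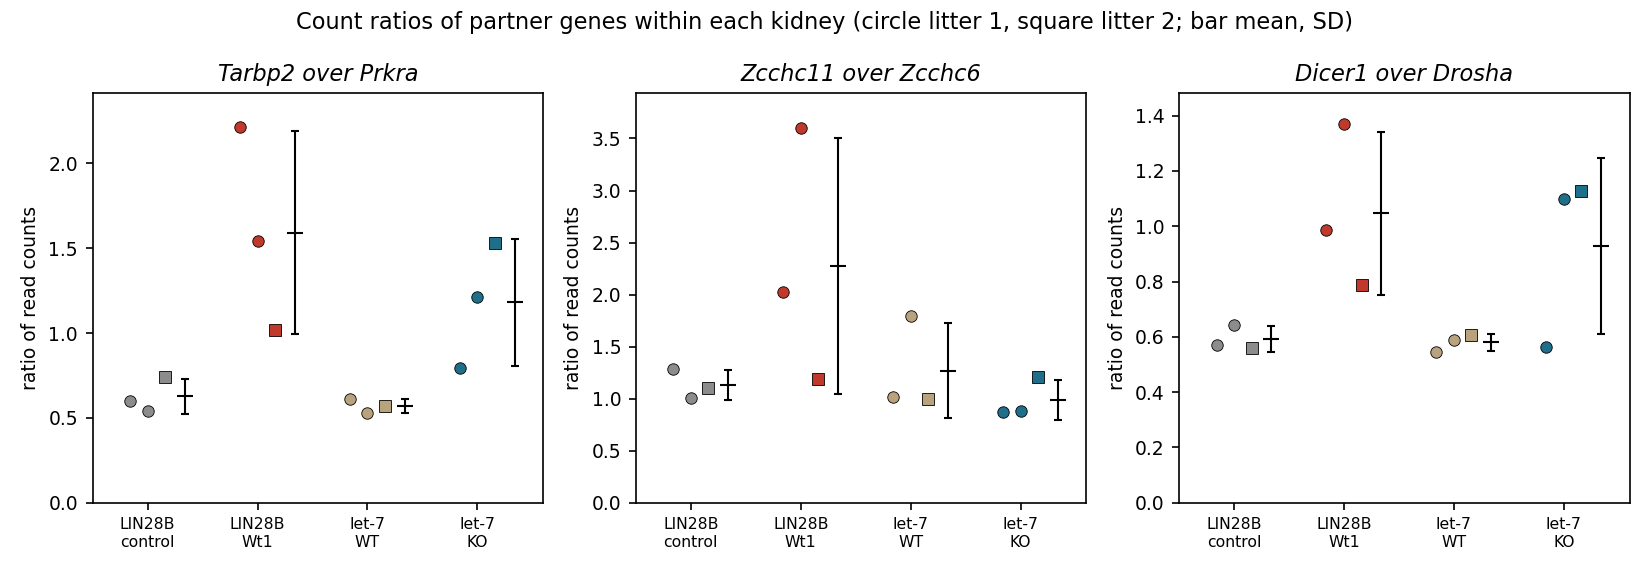
Ratio of read counts of partner genes within each kidney (vertical axes, linear from 0) by group, with circles for litter 1, squares for litter 2 and the mean ± SD of 3 kidneys. The Tarbp2 to Prkra ratio was at most 0.741 in the control kidneys and at least 0.792 in the mutant kidneys of both models, while the Zcchc11 to Zcchc6 ratio overlapped in both.

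Zcchc11 (ENSMUSG00000034610.14, Tut4 in GENCODE, plus strand of chromosome 4, 108459426 to 108559421) encodes a uridylyltransferase that Lin28a recruits. It lay at 56.9, 52.5 and 42.8 CPM in LIN28B controls and at 71.9, 81.5 and 63.0 CPM in LIN28B Wt1 kidneys. The groups did not overlap, and the log2 fold change of 0.51 (SE 0.17, adjusted p = 0.163) did not pass the threshold. In the let-7 experiment it lay at 36.4, 34.8 and 45.5 CPM in WT and 38.0, 29.1 and 40.4 CPM in KO kidneys, overlapping (log2 fold change -0.13, SE 0.23, adjusted p = 0.884).

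Zcchc6 (ENSMUSG00000035248.9, Tut7 in GENCODE; minus strand of chromosome 13, 59771561 to 59823147), the paralog with the same activity, overlapped in both models. Its log2 fold changes were -0.28 (SE 0.29, adjusted p = 0.681) in LIN28B Wt1 and 0.12 (SE 0.31, adjusted p = 0.925) in let-7 KO kidneys. The LIN28B Wt1 kidneys alone ran from 22.6 to 53.2 CPM. Zcchc6 lies 11.2 Mb from the deleted let-7 genes on the same chromosome. It shares 1299 exonic bases with the antisense gene Etohd2, and reads from that stretch cannot be assigned to either gene. The ratio of Zcchc11 to Zcchc6 counts overlapped in both models (exact permutation test, p = 0.2 and p = 0.5).

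Dis3l2 (ENSMUSG00000053333.15; plus strand of chromosome 1, 86703808 to 87050095), the nuclease that degrades uridylated let-7 precursors, was below every littermate in both models and passed the threshold in neither. LIN28B controls lay at 27.7, 24.7 and 24.5 CPM and LIN28B Wt1 kidneys at 15.7, 16.3 and 20.2 CPM (log2 fold change -0.55, SE 0.20, adjusted p = 0.184). The let-7 WT kidneys lay at 33.5, 27.9 and 30.6 CPM and let-7 KO kidneys at 18.3, 12.1 and 22.1 CPM (log2 fold change -0.81, SE 0.27, adjusted p = 0.377). Leaving out 1 kidney at a time moved the LIN28B Wt1 value between -0.68 and -0.49, and for let-7 KO the range was -1.01 to -0.60. Dis3l2 levels went with the length slope of the kidneys (Pearson r = 0.51 over 12 kidneys). With the slope as a covariate the LIN28B Wt1 value was -0.44 (edgeR, adjusted p = 0.225). The part of the slope in these values was not tested further. Dis3l2 was also the only member whose 2 control groups did not overlap, higher in let-7 WT than in LIN28B controls (log2 0.26, SE 0.23, adjusted p = 0.840).

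**Figure D3:**
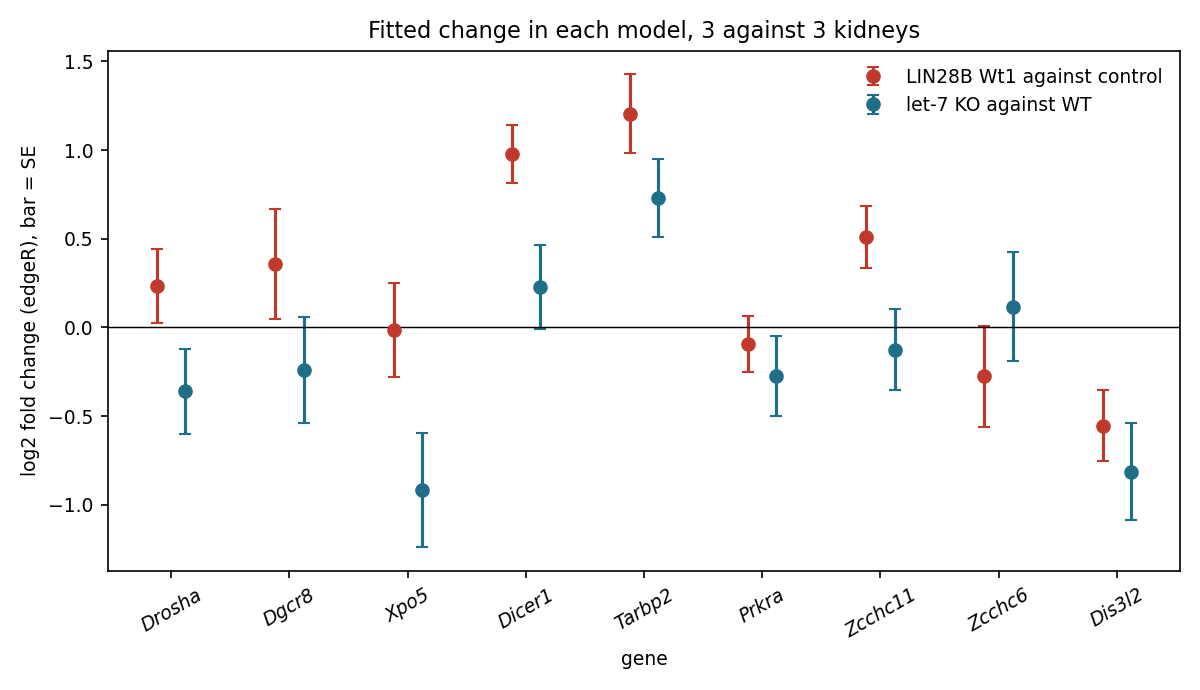
Log2 fold change fitted by edgeR (vertical axis, bars ± SE) of the 9 genes other than Lin28b (horizontal axis), in LIN28B Wt1 against control and let-7 KO against WT kidneys, 3 against 3. Dicer1 and Tarbp2 in LIN28B Wt1 were called at 0.98 and 1.20, and Dis3l2 was below 0 in both models at -0.55 and -0.81.

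Whether the 2 models differed was tested as an interaction in 1 fit of the 12 kidneys. It compares each mutant group with its own control group and does not pair kidneys by litter. No member was called, where 0.00602% of 16598 genes were, and none passed the looser threshold, where 1.55% did. The clearest difference, by unadjusted p, was that of Dicer1, whose log2 fold change was 0.73 larger in LIN28B Wt1 than in let-7 KO kidneys (SE 0.28, adjusted p = 0.711). Zcchc11 followed with 0.62 (SE 0.27, adjusted p = 0.771). For Tarbp2 the difference was 0.45 (SE 0.32, adjusted p = 0.904), and an interval of 2 SE ran from -0.19 to 1.09, which includes no difference.

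The 2 control groups, which differ in strain and litters, were also compared. No member was called, where 0.627% of genes were, none passed the looser threshold, where 3.32% did, and 1 member did not overlap, where 19.5% of genes did. Strain, litter and experiment cannot be told apart in that comparison, and levels set side by side across the models carry all of them. Dicer1 lay at 35.5 ± 3.998 CPM in LIN28B controls and 33.4 ± 6.58 in let-7 WT kidneys (SD, n = 3), and Tarbp2 at 40.9 ± 7.41 and 39.7 ± 5.88.

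Per kilobase of transcript, Prkra, Tarbp2 and Drosha were the top 3 genes in both control groups, with no overlap between neighbours, at 40.4, 26.9 and 13.1 CPM per kilobase in LIN28B controls. Below them Zcchc11, Dis3l2, Zcchc6, Xpo5 and Dgcr8 lay between 5.34 and 8.38 CPM per kilobase in LIN28B controls, and each overlapped with its neighbour in the order. Dicer1 was second to last at 3.61 ± 0.406 CPM per kilobase, above Lin28b at 0.0645. In LIN28B Wt1 kidneys Dicer1 stood at 7.09 ± 0.650 CPM per kilobase, below Zcchc11 and overlapping with Xpo5, Dgcr8 and Zcchc6 below it.

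Promoters of the 2 called genes are printed because they rose together. They span 300 bases around the annotated start in RefSeq on GRCm38.p6, with CCAAT boxes (CCAAT or its reverse ATTGG) and GC boxes (GGGCGG or its reverse CCGCCC) in capitals. Dicer1 lies at chr12:104751903-104752202 on the minus strand and Tarbp2 at chr15:102517942-102518241 on the plus strand.
Dicer1: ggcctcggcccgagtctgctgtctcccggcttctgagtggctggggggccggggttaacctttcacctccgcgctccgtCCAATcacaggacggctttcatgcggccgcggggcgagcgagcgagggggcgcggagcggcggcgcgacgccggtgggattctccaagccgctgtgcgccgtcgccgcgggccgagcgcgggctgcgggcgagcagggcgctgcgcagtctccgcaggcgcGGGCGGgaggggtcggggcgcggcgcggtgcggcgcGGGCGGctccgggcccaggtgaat
Tarbp2: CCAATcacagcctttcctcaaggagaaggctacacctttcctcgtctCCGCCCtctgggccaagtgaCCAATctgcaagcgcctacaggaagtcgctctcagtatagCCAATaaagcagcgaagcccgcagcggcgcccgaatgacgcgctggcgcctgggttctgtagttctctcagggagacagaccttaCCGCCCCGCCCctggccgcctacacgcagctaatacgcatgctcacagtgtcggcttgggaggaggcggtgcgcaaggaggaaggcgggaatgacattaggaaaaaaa

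Dicer1 held 1 CCAAT box and 2 GC boxes, and Tarbp2 held 3 of each, 2 of its GC boxes overlapping. Of 32851 promoters of the same length, 37.4% held a CCAAT box and 35.7% a GC box, so these letters are common and no factor was measured.

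Among other genes of the pathway, Ran, Igf2bp1 and Igf2bp2 rose in LIN28B Wt1 kidneys. The lists were Argonautes and their GW182 partners (7 genes), microprocessor cofactors with the export factor Ran (15 genes) and regulators of let-7 biogenesis (19 genes, Lin28a and Lin28b among them). These lists too were chosen with earlier results of these data known. No Argonaute or GW182 gene was called in either model, and none passed the looser threshold. Of the 15 cofactors 1, Ran, the GTPase that loads exportin 5, was called in LIN28B Wt1 kidneys, at 535 to 588 CPM in controls and 814 to 917 CPM in mutants (log2 fold change 0.62, SE 0.11, adjusted p = 0.0339). Over all genes tested in that model, 0.462% were called higher. A replicate block for litter gave 0.62 for Ran, no longer called (edgeR, adjusted p = 0.0737). With 1 kidney left out its value was from 0.59 to 0.67, and Ran was called only without LIN28B Wt1 3. Ran in let-7 KO kidneys also lay above every littermate, with a log2 fold change of 0.25 (SE 0.15, adjusted p = 0.575).

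Srsf3, a splicing factor that helps Drosha find its hairpins, passed only the looser threshold in LIN28B Wt1 (log2 fold change 0.41, SE 0.12, adjusted p = 0.111). Ddx17, an RNA helicase of the microprocessor, passed it in let-7 KO, with WT kidneys at 59.1 to 65.8 CPM and KO kidneys at 80.8 to 119 CPM (log2 fold change 0.62, SE 0.20, adjusted p = 0.366). Of the 15 cofactors 5 were higher without overlap and 1 lower in LIN28B Wt1, and 3 higher and 1 lower in let-7 KO, beside shares of all genes of 10.3% and 13.6% for the first model and 7.81% and 8.98% for the second.

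Of the 18 let-7 regulators tested in LIN28B Wt1 kidneys 2 were called, both higher, where 0.462% of all genes were called higher and 0.766% lower. Igf2bp1, an embryonic RNA-binding protein and known let-7 target, lay at 21.1, 21.8 and 26.5 CPM in controls and 85.6, 81.9 and 89.7 CPM in LIN28B Wt1 kidneys. Its rise was 3.72-fold (log2 1.90, SE 0.16, adjusted p = 0.000977). Igf2bp2, its paralog, lay at 59.5, 58.3 and 54.5 CPM in controls and 154, 115 and 232 CPM in mutants, a rise of 2.92-fold (log2 1.54, SE 0.24, adjusted p = 0.0185). Igf2bp1 was called in all 6 fits that left out 1 kidney (1.83 to 2.02 on the log2 scale), and Igf2bp2 in 2 of 6 (1.22 to 1.77), those without LIN28B Wt1 2 or 3. In let-7 KO kidneys none of 17 was called, with log2 fold changes of 0.38 (SE 0.45, adjusted p = 0.803) for Igf2bp1 and 0.33 (SE 0.24, adjusted p = 0.647) for Igf2bp2.

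**Figure D4:**
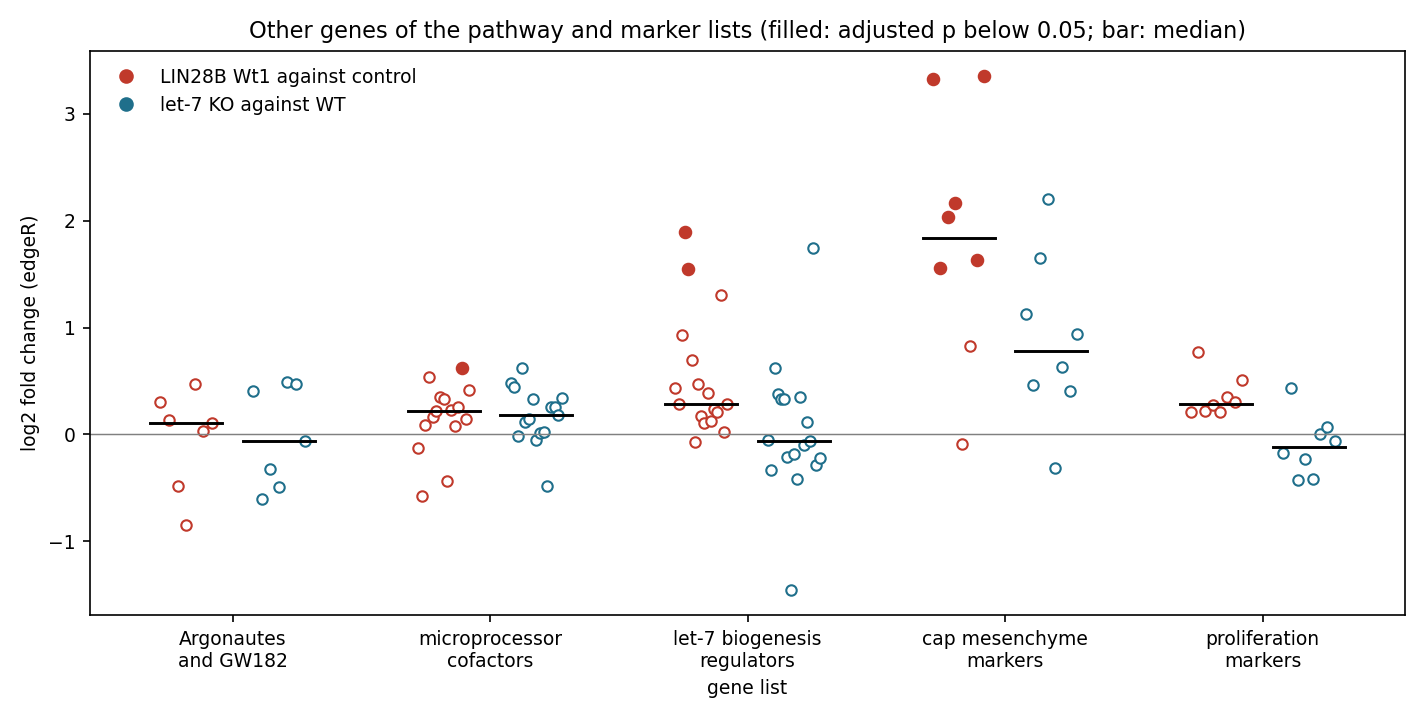
Log2 fold change fitted by edgeR (vertical axis) of each gene of the Argonaute, microprocessor cofactor, let-7 regulator (without Lin28b), cap mesenchyme and proliferation lists (horizontal axis) in both models, with filled points for an adjusted p below 0.05 and a bar at the list's median. Filled points appear only in LIN28B Wt1: Ran, Igf2bp1, Igf2bp2 and 6 of 8 cap mesenchyme markers.

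Marker RNA of several cell types moved with the LIN28B groups. The summed level of 8 cap mesenchyme markers was 181 to 214 CPM in LIN28B controls and 419 to 587 CPM in LIN28B Wt1 kidneys, with 6 of 8 called higher (2 to 7 of 8 with 1 kidney left out, the fewest without control 1 or 2, and 3 without LIN28B Wt1 2). That of 8 proliferation markers was 974 to 1025 CPM and 1229 to 1370 CPM, with 0 of 8 called and 2 past the looser threshold. That of 8 proximal tubule markers was 2458 to 2520 CPM and 1178 to 1417 CPM, with 2 called lower. Over all genes tested in LIN28B Wt1, 0.462% were called higher and 0.766% lower, and 3.25% were higher at the looser threshold. Within the LIN28B Wt1 group, kidney 3 had the highest cap mesenchyme sum (587 CPM) and the lowest Tarbp2 (67.2 CPM). That kidney also came from litter 2 and had a length slope of 0.15, against -0.055 and -0.065 in kidneys 1 and 2. These differences cannot be told apart in 1 kidney. Six2, Eya1, Osr1, Gdnf and Itga8 were each highest in kidney 3, Meox1 was between, and Cited1 and Crym were lowest there. Itga8, which overlapped with controls, was at 180 CPM in kidney 3 against 92.0 and 78.5 CPM in kidneys 1 and 2. In the let-7 experiment the cap mesenchyme sums overlapped, at 128 to 202 CPM in WT and 175 to 191 CPM in KO kidneys, with 0 of 8 called. That sum is mostly Itga8, at a mean of 109 CPM in WT and 87.7 CPM in KO kidneys. Of the 8 markers 7 had a positive log2 fold change in let-7 KO (median 0.79), 2 did not overlap on the higher side (Gdnf, 4.59-fold, past the looser threshold, and Cited1, 2.18-fold, edgeR, adjusted p = 0.362 and 0.379), and none on the lower side. Over all genes tested in let-7 KO, 7.81% did not overlap on the higher side and 8.98% on the lower side. At the looser threshold 1.1% were higher. The proximal tubule sums did not overlap, at 3359 to 4000 CPM in let-7 WT and 2737 to 3014 CPM in let-7 KO kidneys. Of these 8 markers 0 were called, where 0.0194% of all genes were called lower. The part of these markers in the values of the 10 genes was not tested. In RNA from whole kidneys, a change in the number of cells of a type and a change in the RNA per cell cannot be told apart.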

How the data were processed

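RNA of each kidney was sequenced from SMARTer Ultra Low RNA libraries. The deposited files hold raw counts per gene, which the authors made without normalization. The submitters' processing notes name cutadapt, TopHat2 2.0.9, Bowtie2, SAMtools 0.1.19, HTSeq and the build mm10. Strand use in counting is not given in the sources used here. The authors used edgeR for their own tests.

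Here edgeR 4.0.16 (R 4.3.3) was run on the counts as deposited: filterByExpr with a minimum count of 10, TMM scaling, and its quasi-likelihood test, with p adjusted by Benjamini-Hochberg over all genes tested. Each model was fitted on its own 6 kidneys, and the difference between models and the comparison of control groups on all 12. CPM was TMM-scaled over 12 kidneys, and a prior count of 0.5 was used for log2 CPM in correlations and within-litter values. Gene models were GENCODE M21 on GRCm38, to which 98.3% of symbols matched, and levels per kilobase use the longest protein-coding transcript. For the length slope, 0.5 was added to CPM without TMM scaling, and each gene's log2 value was centred on its mean over 12 kidneys. The slope is that of these centred values on log2 transcript length, over genes with a mean of at least 5 CPM. The scripts were tested on simulated data.

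All 10 members were named. Of the other pathway lists, genes with an unadjusted p below 0.01 in either model and Lin28a were named, and for Lin28b and Tarbp2 the 3 genes most correlated with each. Ratios and promoter motifs were added after the values were seen. The members and lists were chosen with earlier results of these data known. Alternatives were DESeq2 1.42.0, upper-quartile scaling, no filter, a filter of 1 CPM in every kidney, litter as a block, a fit of all 12 kidneys, the length slope as a covariate, the looser threshold and leaving out each kidney.

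Litter numbers come from the sample titles, and mutants and controls of a litter are littermates, so litter pairs the groups. Deviations from the group means correlated with a mean r of -0.17 within litters and 0.20 across litters in the LIN28B experiment, and -0.021 and 0.023 in the let-7 experiment. No kidneys were found to be one library deposited more than once: chi-square per gene between replicates was at least 31.6. Kidneys are taken as separate animals, as the labels do not say otherwise, and if any share an animal p-values measure spread that is partly technical.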

Additional observations from a re-analysis of the deposited data

How the results depend on the processing

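In LIN28B Wt1 kidneys 2 members were called with DESeq2, upper-quartile scaling, either other filter, a fit of all 12 kidneys, the length covariate and the looser threshold. The count was 0 with litter as a replicate block and ran from 0 to 3 when 1 kidney was left out, where fewer kidneys enter the test. In let-7 KO kidneys the count was 0 in every alternative but the looser threshold, where it was 1 (Tarbp2). The difference between models and the comparison of control groups gave 0 throughout. Among the members the block changed no other call. For other named genes, alternatives chosen after seeing the data were the block, the length covariate and leaving out each kidney in LIN28B Wt1: the block lost Ran and kept Igf2bp1 and Igf2bp2, and 5 of 8 cap mesenchyme markers were called with it.

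Some differences turned sign, none of them called in the main fit. Not all were near 0: Dgcr8 in let-7 KO was at -0.24 (SE 0.30) in the main fit. For Xpo5 in LIN28B Wt1 the log2 fold change was 0.0081 with DESeq2 and 0.25 with the length covariate, and with 1 kidney left out it ran from -0.29 to 0.20 (Prkra from -0.16 to 0.012). In let-7 KO, the length covariate gave 0.12 for Dgcr8 and 0.042 for Zcchc11, and with 1 kidney left out Zcchc11 ran from -0.22 to 0.0070 and Zcchc6 from -0.15 to 0.40. The difference between models for Prkra ran from -0.012 to 0.27. Between control groups the ranges were -0.38 to 0.16 for Dgcr8, -0.26 to 0.0061 for Dicer1, -0.15 to 0.12 for Tarbp2, -0.19 to 0.028 for Drosha and -0.067 to 0.22 for Prkra. The causes were not tested. Of 543 values of members over the alternatives, 511 kept their direction and side of the threshold. Most of the 543 belong to differences that were not called in the main fit. The 12 that lost a call were all of Dicer1 and Tarbp2 in LIN28B Wt1 kidneys, the only members called there. With 3 kidneys a group, small changes of these genes would not be detectable.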
